A study of Homo sapiens with 22 samples.

Results

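Mitosis and spindle genes encode the machinery that condenses chromosomes, attaches them to the spindle, separates them and divides the cell. The set described here holds 59 human genes, taken by gene name from a fixed list, with the row of the highest mean where a name occurred more than once. All 59 were present in 2 of the 3 expression tables, among 60669 genes in each, and 57 were among the 14954 genes of the third, in which PRC1 and NUSAP1 were not listed. All of them passed the filter on low values in the tables that list them. The members fall by function into 9 regulators of the cyclin-dependent kinase switch, 3 other mitotic kinases, 12 kinetochore and spindle checkpoint genes, 4 genes of the chromosomal passenger complex, 3 anaphase genes, 11 kinesins, 6 spindle assembly genes, 4 cytokinesis genes and 7 genes of condensin and chromosome structure.

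RNA was sequenced from the breast cancer cell line MDA-MB-231, an established human line, in 22 libraries, with 2 libraries in each of 11 groups. The knockdown table held shM3 cells with METTL3-WT added back (shM3_WT), shM3 cells with METTL3-CD added back (shM3_CD), shM3 cells and B5 cells, all labelled with a time of 2 to 3 months. In the DMSO table were cells labelled JQ1, Molib or I-BET151, each labelled 0.5 µM for 3 days, and cells labelled DMSO for 3 days. The treatment of the libraries labelled I-BET151 is in doubt, as described with the results. The CTRL table held cells labelled MW_JQ1 and cells labelled JQ1, both given 0.5 µM JQ1 for 3 days, and CTRL cells at 3 days. Every group carries the genotype label WT, the labels do not spell out B5, CD or MW, and they do not say whether a line is a clone or a pool, nor whether both libraries of a group stem from different cultures. The p-values therefore measure only the spread between these libraries, which may be technical.

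As background, cyclin A and cyclin B activate the kinase CDK1 to start mitosis, Polo and Aurora kinases then build the spindle, and kinetochores hold back the anaphase-promoting complex until every chromosome is attached. Most of these genes are transcribed in a wave in G2 and M phase, when the MuvB complex exchanges its repressive DREAM partners for B-MYB and FOXM1 at promoters that often carry a CHR element (cell cycle genes homology region), commonly paired with CCAAT boxes. METTL3 is the catalytic subunit of the complex that writes m6A on RNA, and BET proteins read acetylated chromatin and are displaced by inhibitors such as JQ1 and I-BET151.

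The promoters of 7 members are shown because they carry, or lack, the letters by which these genes are usually recognised. Most members moved together in many of the comparisons that follow, CKS2 being an exception in several of them. Each line gives the 100 bases before the RefSeq gene start on the plus strand of GRCh38.p14, 5′ to 3′, with capitals marking CHR letters (TTTGAA, or TTCAAA for the other strand) and CCAAT letters (CCAAT, or ATTGG for the other strand).
CCNB2 (chr15:59105046-59105145): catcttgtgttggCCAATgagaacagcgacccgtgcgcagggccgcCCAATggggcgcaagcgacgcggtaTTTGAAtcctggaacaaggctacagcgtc
PLK1 (chr16:23678789-23678888): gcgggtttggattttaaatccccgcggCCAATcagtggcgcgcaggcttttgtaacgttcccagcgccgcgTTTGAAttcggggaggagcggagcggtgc
CDCA8 (chr1:37692416-37692515): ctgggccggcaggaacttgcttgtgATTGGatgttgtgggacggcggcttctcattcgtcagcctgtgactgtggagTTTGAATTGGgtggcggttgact
CDC20 (chr1:43358881-43358980): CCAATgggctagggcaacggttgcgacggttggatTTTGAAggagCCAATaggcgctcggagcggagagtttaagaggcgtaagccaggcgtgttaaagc
CKS2 (chr9:89311095-89311194): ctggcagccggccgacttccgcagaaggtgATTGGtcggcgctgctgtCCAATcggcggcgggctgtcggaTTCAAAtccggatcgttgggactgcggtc
KIF20A (chr5:138179012-138179111): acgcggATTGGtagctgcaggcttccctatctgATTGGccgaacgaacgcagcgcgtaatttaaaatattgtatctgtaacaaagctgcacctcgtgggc
NDC80 (chr18:2571457-2571556): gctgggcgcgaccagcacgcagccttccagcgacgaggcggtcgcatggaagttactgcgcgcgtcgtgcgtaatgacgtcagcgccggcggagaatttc
In CCNB2, PLK1 and CKS2 the CHR letters began 29 bases before the start, in CDCA8 23 bases before it, running into CCAAT letters of the other strand, and in CDC20 65 bases before it. KIF20A showed CCAAT letters without CHR letters in these 100 bases, and NDC80 showed neither. RefSeq promoter windows of 300 bases (250 before to 50 after a start) were matched by symbol for 51 of 59 members, which had 64 windows because some genes have several starts. Read on both strands, TTTGAA stood in 64.1% of the members' windows, against 15.2% of all 35116 windows, and CCAAT in 70.3% against 34.6%. The E2F letters TTCGCGC, their variant TTCCCGC or the variant TTGGCGC stood in 26.6% against 11%, the CHR variant TTCGAA in 7.81% against 1.45%, and the forkhead letters GTAAACA in 1.56% against 3.42%. With 1 window a gene, the first listed, TTTGAA stood in 72.5% of 51 members and 9.48% of the 10103 genes tested in the knockdown table that had a window. These matches describe letters in a window and not bound sites. As gene bodies on GRCh38, CENPF lies at chr1:214603195-214664588, TOP2A at chr17:40388516-40417950, HMMR at chr5:163460203-163491945 and PRC1 at chr15:90966038-90995629.

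Levels are given as FPKM, fragments scaled to transcript length and library total, so that genes can be compared with each other. Differences between groups are log2 fold changes of log2(FPKM + 1), a scale that compresses differences between weakly expressed genes. A gene was called at a Benjamini-Hochberg adjusted p under 0.05 from limma over all genes tested in a table. The read depth behind the FPKM is unknown. In B5 replicate 2 the gene PIDD1 was listed at 8234197 FPKM, against 423171 FPKM for the sum of all its other genes, a sum near those of the other libraries, and without this library 57 members were again called lower in shM3 against B5, while its effect on the other comparisons is given beside them. Of the markers of a mesenchymal breast cancer line, VIM lay between 548.9 and 1627 FPKM and AXL between 137 and 255 FPKM over the 22 libraries. The 7 luminal markers summed to between 237 and 691 FPKM, most of it KRT8 (between 199.7 and 666 FPKM). ERBB2 was at up to 48.8, EPCAM at up to 10.9 and MUC1 at up to 8.48 FPKM. CDH1, ESR1 and PGR stayed at or below 0.416 FPKM wherever they were listed, as did the blood cell and endothelial markers PTPRC and VWF. Of the same lists CD14 reached 16.8, COL1A1 13.4 and the endothelial marker PECAM1 4.87 FPKM.

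The series concerns BET inhibition and the complex that writes m6A, and METTL3 was read first as the targeted gene. It was at 312 and 311 FPKM in shM3_WT, 277 and 270.5 FPKM in shM3_CD, 4.39 and 4.8 FPKM in shM3 and 20.1 and 23.8 FPKM in B5. The knockdown and both add-backs thus showed in every library, and the added METTL3 stood far above its B5 level.

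Almost the whole set was lower in shM3 cells. In shM3 against B5, 57 of 59 members fell and none rose, with a median log2 fold change of -1.11, while 19.9% of the 14638 genes tested fell and the median of all of them was -0.0004. The median level of the 59 members was 14.2 and 14 FPKM in the shM3 libraries, against 32.8 and 34.3 FPKM in the B5 libraries. In these bulk samples, fewer cells in G2 and M phase and less of each mRNA per cell cannot be told apart.

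Among the regulators of the CDK switch, 8 of 9 fell in shM3. CCNB1, cyclin B1, was at 46.3 and 49.8 FPKM in shM3, against 92.6 and 91.8 FPKM in B5 (log2 fold change -0.93, 95% interval -1.09 to -0.77, adjusted p = 0.00015). CDK1, its catalytic partner, was at 19.6 and 26.2 FPKM in shM3, against 54.4 and 49.7 FPKM in B5 (log2 fold change -1.16, 95% interval -1.47 to -0.85, adjusted p = 0.00076). FOXM1, a transcription factor for G2 and M genes, was at 8.71 and 6.32 FPKM in shM3, against 17.2 and 17.1 FPKM in B5 (log2 fold change -1.11, 95% interval -1.65 to -0.56, adjusted p = 0.0094). For all 3 genes both shM3 libraries lay below both B5 libraries. The exception was CKS2, a small CDK-binding subunit, at 128 and 120.2 FPKM in shM3 and 145 and 140.4 FPKM in B5 (log2 fold change -0.20, adjusted p = 0.073).

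All 12 kinetochore and checkpoint genes fell, with a median log2 fold change of -1.21, and they held 2 of the 3 deepest falls of the set. CENPF, a large outer kinetochore protein, was at 5.28 and 5.1 FPKM in shM3, against 22.4 and 29.95 FPKM in B5 (log2 fold change -2.12, 95% interval -2.44 to -1.8, adjusted p = 8.8e-05). SPC25, a subunit of the NDC80 microtubule-binding complex, was at 3.65 and 3.76 FPKM in shM3, against 15.7 and 17 FPKM in B5 (log2 fold change -1.88, 95% interval -2.23 to -1.53, adjusted p = 0.00019). NDC80 itself was at 14.4 and 13.5 FPKM in shM3, against 40.4 and 40.6 FPKM in B5 (log2 fold change -1.47, 95% interval -1.65 to -1.3, adjusted p = 4.2e-05). The checkpoint gene MAD2L1 fell least of those called, with 11 and 10.8 FPKM in shM3, against 14.8 and 16.8 FPKM in B5 (log2 fold change -0.50, 95% interval -0.73 to -0.26, adjusted p = 0.008). BUB1, a checkpoint kinase, had a log2 fold change of -1.02, and CENPE, a kinetochore motor, of -0.91, both called.

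The other mitotic kinases and the passenger complex, which corrects faulty attachments, fell in full, 3 of 3 and 4 of 4. PLK1, the Polo kinase of mitotic entry and spindle assembly, was at 19.1 and 10.6 FPKM in shM3, against 48.5 and 41 FPKM in B5 (log2 fold change -1.58, 95% interval -2.16 to -0.99, adjusted p = 0.003). AURKB, the kinase of the passenger complex, was at 31.1 and 27.6 FPKM in shM3, against 64.2 and 75.3 FPKM in B5 (log2 fold change -1.22, 95% interval -1.45 to -0.98, adjusted p = 0.00022). The shM3 libraries were below the B5 libraries for all 7 genes.

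All 11 kinesins, all 6 spindle assembly genes and all 7 genes of condensin and chromosome structure fell. TOP2A, which untangles sister chromatids, was at 29.7 and 30.4 FPKM in shM3, against 109 and 127 FPKM in B5 (log2 fold change -1.93, 95% interval -2.14 to -1.73, adjusted p = 3.2e-05). KIF20A, a motor of the central spindle, was at 14.2 and 15.7 FPKM in shM3, against 48.7 and 53.1 FPKM in B5 (log2 fold change -1.7, 95% interval -2.08 to -1.33, adjusted p = 0.00036). KIF11, the motor that pushes spindle poles apart, was at 8.76 and 8.45 FPKM in shM3, against 27.1 and 31.1 FPKM in B5 (log2 fold change -1.64, 95% interval -1.86 to -1.43, adjusted p = 5.1e-05). For these genes the B5 libraries stood at more than 3 times the shM3 level. The log2 fold change was -1.48 for TPX2, which targets Aurora A to the spindle, -1.57 for MKI67, a coat of mitotic chromosomes, -1.52 for SMC4 and -1.06 for NCAPG, both of condensin, all called.

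The 3 anaphase genes fell, with a median of -0.92. CDC20, the activator of the anaphase-promoting complex, was at 74.4 and 70.4 FPKM in shM3, against 128 and 121 FPKM in B5 (log2 fold change -0.78, 95% interval -0.94 to -0.62, adjusted p = 0.00028). Of the 4 cytokinesis genes 3 fell, including ANLN, a scaffold of the contractile ring, at 33.5 and 33.4 FPKM in shM3, against 55.8 and 59.6 FPKM in B5 (log2 fold change -0.77, 95% interval -0.93 to -0.60, adjusted p = 0.00032). PRC1, which bundles the antiparallel microtubules of the midzone, was at 13 and 20.8 FPKM in shM3 and 11.8 and 16.1 FPKM in B5 (log2 fold change 0.24, adjusted p = 0.5). The libraries of both groups overlapped for PRC1, which was the only member with a positive log2 fold change.

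**Figure D1:**
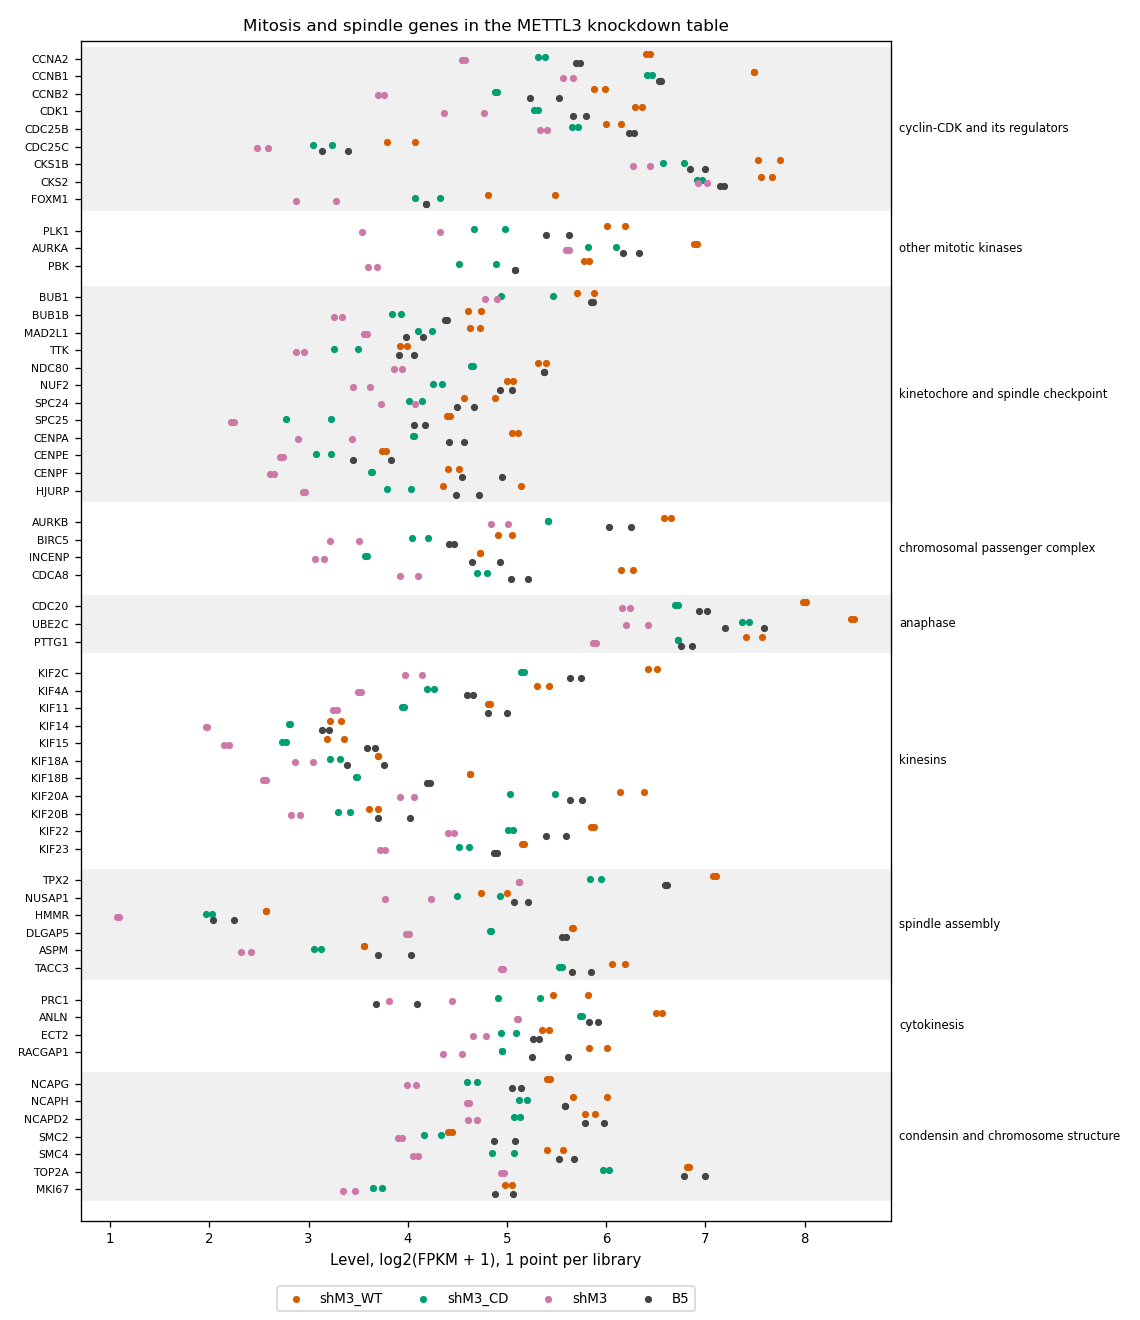
Level of each member, as log2(FPKM + 1) on the x axis, in the knockdown table, with 1 point per library and members grouped by function. The shM3 points lie left of the B5 points for 58 of 59 members, PRC1 being the exception, and the shM3_WT points lie right of the shM3 points for all 59.

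Every member was higher with METTL3-WT added back. In shM3_WT against shM3, 59 of 59 rose, with a median log2 fold change of 1.49, while 16.7% of genes tested rose and the median of all was -0.08. Both shM3_WT libraries lay above both shM3 libraries for all 59, against 30.5% of all genes. Of all genes 2451 were higher and 3321 lower, and with TMM factors 2932 and 2624. The median member was at 43.1 and 41.2 FPKM in the shM3_WT libraries, against 14.2 and 14 FPKM in the shM3 libraries.

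The steepest rises were those of motors and of cyclin B2. KIF2C, a kinesin that takes microtubules apart at the centromere, was at 90.1 and 84.7 FPKM in shM3_WT, against 16.6 and 14.7 FPKM in shM3 (log2 fold change 2.41, 95% interval 2.2 to 2.61, adjusted p = 1.4e-05). KIF20A was at 82.1 and 69.5 FPKM in shM3_WT, against 14.2 and 15.7 FPKM in shM3 (log2 fold change 2.27, 95% interval 1.89 to 2.64, adjusted p = 0.00011). CCNB2, cyclin B2, was at 57.9 and 62.5 FPKM in shM3_WT, against 12.5 and 12 FPKM in shM3 (log2 fold change 2.21, 95% interval 1.95 to 2.46, adjusted p = 3.5e-05). The smallest rises were those of SMC2, a condensin ATPase (log2 fold change 0.50, 95% interval 0.26 to 0.74, adjusted p = 0.0078), CKS2 (log2 fold change 0.65) and ECT2, which activates RhoA at the division plane (log2 fold change 0.66).

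By function, the median log2 fold change of shM3_WT against shM3 was 2.16 for the mitotic kinases outside the CDK switch, 1.8 for the anaphase genes, 1.76 for the CDK switch, 1.66 for the passenger complex, 1.45 for cytokinesis, 1.43 for kinesins, 1.42 for kinetochores, 1.38 for condensin and chromosome structure, and 1.34 for spindle assembly. Among the genes described above, the log2 fold change was 2.17 for PLK1, 2.07 for FOXM1, 1.97 for TPX2, 1.87 for CCNB1, 1.87 for TOP2A, 1.8 for CDC20, 1.76 for CDK1, 1.69 for AURKB, 1.61 for MKI67, 1.56 for KIF11, 1.51 for PRC1, 1.45 for NDC80, 1.42 for ANLN, 1.41 for SMC4, 1.38 for NCAPG, 1.03 for CENPE and 0.95 for BUB1. All of these were called.

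Most members were also higher with METTL3-CD added back. In shM3_CD against shM3, 45 of 59 rose and none fell, with a median log2 fold change of 0.72, against 6.82% of genes tested rising and a median of 0.01 for all. The median member was at 27.5 and 24.4 FPKM in the shM3_CD libraries, against 14.2 and 14 FPKM in the shM3 libraries. Leaving out any 1 of the 4 libraries left 27 to 29 members called, with 29 and 28 when shM3 replicate 1 or 2 was left out, and 28 and 27 when that was done with shM3_CD replicate 1 or 2.

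KIF20A had the largest rise, with 43.8 and 31.7 FPKM in shM3_CD, against 14.2 and 15.7 FPKM in shM3 (log2 fold change 1.26, 95% interval 0.89 to 1.64, adjusted p = 0.0046). CCNB2 was at 28.9 and 28.4 FPKM in shM3_CD, against 12.5 and 12 FPKM in shM3 (log2 fold change 1.16, 95% interval 0.91 to 1.42, adjusted p = 0.0014). FOXM1 was at 15.8 and 19.1 FPKM in shM3_CD, against 8.71 and 6.32 FPKM in shM3 (log2 fold change 1.12, 95% interval 0.58 to 1.67, adjusted p = 0.025). All 3 anaphase genes, all 4 genes of the passenger complex and 10 of 11 kinesins rose, whereas 1 of 4 cytokinesis genes (ANLN) and 1 of 3 other mitotic kinases (PBK) did. MKI67 was at 11.5 and 12.3 FPKM in shM3_CD, against 9.15 and 10.03 FPKM in shM3, and was not called (log2 fold change 0.29, adjusted p = 0.11). SPC24, another subunit of the NDC80 complex, was not called either (log2 fold change 0.18, adjusted p = 0.5), and CKS2 had a log2 fold change of -0.03. PLK1 and PRC1 moved by 0.89 and 1.00 on the log2 scale but missed the threshold (adjusted p = 0.063 for PLK1 and 0.053 for PRC1), with no overlap between groups but with libraries of 1 group far apart.

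The direct comparison of the add-backs gave higher levels with METTL3-WT. In shM3_WT against shM3_CD, 54 of 59 members were higher and none lower, with a median log2 fold change of 0.83, against 10.2% of genes tested being higher and a median of -0.08 for all. Over all genes 1494 were higher and 2291 lower, and with TMM factors 2005 and 1525. METTL3 itself did not differ by call (log2 fold change 0.19, 95% interval -0.03 to 0.41, adjusted p = 0.18), with 312 and 311 FPKM in shM3_WT, against 277 and 270.5 FPKM in shM3_CD.

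CDCA8, borealin of the passenger complex, differed most, with 76.2 and 69.7 FPKM in shM3_WT, against 26.8 and 24.9 FPKM in shM3_CD (log2 fold change 1.46, 95% interval 1.22 to 1.7, adjusted p = 0.00052). SPC25 was at 20.04 and 20.4 FPKM in shM3_WT, against 5.82 and 8.36 FPKM in shM3_CD (log2 fold change 1.41, 95% interval 1.06 to 1.76, adjusted p = 0.0016). MKI67 was at 32.1 and 30.6 FPKM in shM3_WT, against 11.5 and 12.3 FPKM in shM3_CD (log2 fold change 1.32, 95% interval 1.09 to 1.56, adjusted p = 0.00058). All 12 kinetochore genes, all 9 genes of the CDK switch, all 3 other mitotic kinases, all 4 of the passenger complex and all 3 anaphase genes were higher in shM3_WT. The 5 members not called were NUSAP1 (log2 fold change 0.16), SMC2 (0.18), KIF20B (0.29), KIF18A (0.44) and PRC1 (0.52).

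Both add-backs were also set against the B5 line. In shM3_WT against B5, 32 of 59 members were higher and 2 lower, with a median log2 fold change of 0.37, against 11.8% of genes tested being higher, 18.2% lower and a median of -0.07 for all. In shM3_CD against B5, 1 member was higher and 37 were lower, with a median of -0.46, against 14.8% of genes tested being higher, 15.2% lower and a median of -0.003. Without B5 replicate 2, 29 members were lower in shM3_CD. The 32 higher members of shM3_WT became 21 without B5 replicate 2, 19 without shM3_WT replicate 1 and 4 with a further limit of 2-fold. Scaling the libraries by TMM factors gave 32 higher members and 1 lower, and over all genes gave 2465 higher and 2073 lower, where the values as deposited gave 1727 and 2659.

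Functional groups differed in how many members stood above B5 in shM3_WT, a difference that was not tested. All 3 anaphase genes and 8 of 9 genes of the CDK switch were higher, with 3 of 4 of the passenger complex and 3 of 4 of cytokinesis, against 3 of 12 kinetochore genes (BUB1B, MAD2L1 and CENPA) and 1 of 7 of condensin and chromosome structure (NCAPG). UBE2C, the ubiquitin-conjugating enzyme of the anaphase-promoting complex, was at 354 and 361 FPKM in shM3_WT, against 192 and 146 FPKM in B5 (log2 fold change 1.09, 95% interval 0.77 to 1.41, adjusted p = 0.0017). CDC20 was at 257 and 252 FPKM in shM3_WT, against 128 and 121 FPKM in B5 (log2 fold change 1.02, 95% interval 0.86 to 1.18, adjusted p = 0.00019). CCNB1 was at 178 and 179 FPKM in shM3_WT, against 92.6 and 91.8 FPKM in B5 (log2 fold change 0.95, 95% interval 0.79 to 1.11, adjusted p = 0.00025). These 3 genes stood at about 2 times their B5 level with no overlap between libraries.

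CDCA8 was at 76.2 and 69.7 FPKM in shM3_WT, against 36.1 and 32 FPKM in B5 (log2 fold change 1.08, 95% interval 0.84 to 1.32, adjusted p = 0.00064), and FOXM1 had a log2 fold change of 0.96 (adjusted p = 0.02), with 43.7 and 27.1 FPKM in shM3_WT, against 17.2 and 17.1 FPKM in B5. PRC1 was the highest of all, at 43.1 and 55.4 FPKM in shM3_WT and 39.3 and 29.1 FPKM in shM3_CD, against 11.8 and 16.1 FPKM in B5, and was the only member above B5 by call in shM3_CD (log2 fold change 1.75, 95% interval 1.14 to 2.37, adjusted p = 0.0033 in shM3_WT, and log2 fold change 1.24, 95% interval 0.62 to 1.85, adjusted p = 0.013 in shM3_CD). The PRC1 call in shM3_CD was lost without B5 replicate 1 and without shM3_CD replicate 1.

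SMC2 was below B5 in shM3_WT, at 20.1 and 20.8 FPKM, against 28.3 and 32.8 FPKM in B5 (log2 fold change -0.55, 95% interval -0.79 to -0.31, adjusted p = 0.0076). KIF15, a motor that works beside KIF11, was the other lower member, at 9.21 and 8.12 FPKM in shM3_WT, against 11 and 11.8 FPKM in B5 (log2 fold change -0.36, 95% interval -0.60 to -0.12, adjusted p = 0.037). ASPM, of the spindle pole, was next in order but not called (log2 fold change -0.30, adjusted p = 0.11). The genes that were near the B5 level in shM3_WT included NDC80 (log2 fold change -0.02, 95% interval -0.20 to 0.16), TOP2A (-0.07, -0.27 to 0.14), BUB1 (-0.06, -0.45 to 0.32), MKI67 (0.05, -0.18 to 0.28), KIF11 (-0.09, -0.30 to 0.13), SMC4 (-0.12, -0.37 to 0.13) and CENPE (0.12, -0.20 to 0.45), none of them called.

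In shM3_CD against B5, all 7 genes of condensin and chromosome structure, 9 of 12 kinetochore genes and 9 of 11 kinesins were lower, against 4 of 9 of the CDK switch and 1 of 3 anaphase genes. MKI67 was lowest, at 11.5 and 12.3 FPKM in shM3_CD, against 28.4 and 32.3 FPKM in B5 (log2 fold change -1.28, 95% interval -1.51 to -1.05, adjusted p = 0.00031). INCENP, the scaffold of the passenger complex, was at 10.9 and 11.1 FPKM in shM3_CD, against 24 and 29.4 FPKM in B5 (log2 fold change -1.2, 95% interval -1.46 to -0.95, adjusted p = 0.00057). SPC25 was at 5.82 and 8.36 FPKM in shM3_CD, against 15.7 and 17 FPKM in B5 (log2 fold change -1.12, 95% interval -1.47 to -0.77, adjusted p = 0.0023). CCNB1, UBE2C, FOXM1 and MAD2L1 had log2 fold changes of -0.11, 0.01, 0.02 and 0.11, none called.

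**Figure D2:**
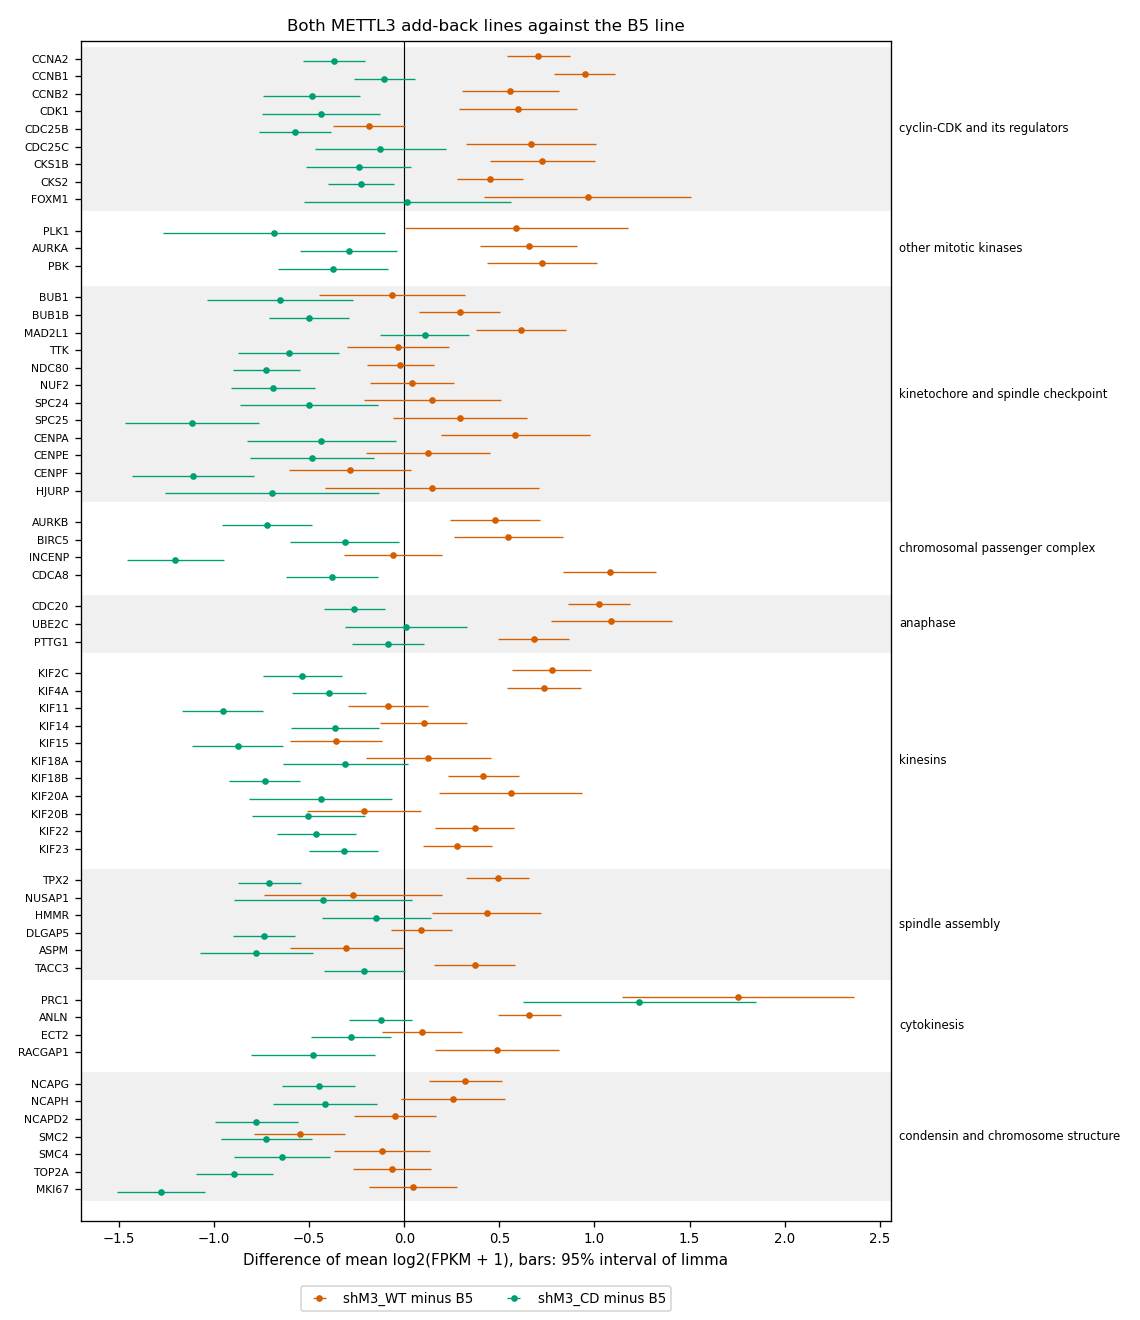
Difference of mean log2(FPKM + 1) of shM3_WT and of shM3_CD from B5 for each member (x axis, with 95% intervals from limma as bars), grouped by function. Values of shM3_WT lie right of 0 for the anaphase genes and nearly all genes of the CDK switch and near 0 for most kinetochore and condensin genes, and values of shM3_CD lie left of 0 for all but 4 members.

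Transcript length moved with the comparison of shM3_WT against B5. Members with an annotated transcript of at most 2000 bases had a median log2 fold change of 0.57 (14 genes), those over 4000 bases of -0.05 (17 genes), and those between of 0.42 (28 genes). Over all genes tested the medians in the same classes were 0.05, -0.17 and -0.05, so the members spanned the wider range. Across the 59 members, as a description, Spearman's rho of length with this difference was -0.53, against -0.21 over all genes, the genes sharing the same 4 libraries. The part of transcript length in the result was not tested.

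RNAs that mostly lack a poly(A) tail were read as a check on the libraries. Of 7 tested, 3 rose and none fell in shM3 against B5, and 4 fell and none rose in shM3_WT against shM3. Of all 14638 genes tested, 2620 rose in shM3 against B5 and 3321 fell in shM3_WT against shM3. The replication-dependent histone gene H2AC6 had a log2 fold change of 1.67 in shM3 against B5 and -2.35 in shM3_WT against shM3, and the signal recognition particle RNA RN7SL1, looked at after its values were seen, was at 80.8 and 123 FPKM in shM3_WT, 121 and 183 FPKM in shM3_CD, 338 and 387 FPKM in shM3 and 305 and 259 FPKM in B5. Their part in the members' values was not tested.

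Other genes of the same pathways were counted from lists chosen by function. In shM3 against B5, 18 of 22 further spindle and cytokinesis genes fell (median -1.07), 22 of 32 further kinetochore genes fell and 1 rose (median -0.71), 6 of 10 mitotic entry and centrosome kinases fell (median -0.61), 6 of 11 cohesin and separase genes fell (median -0.54) and 2 of 3 condensin II genes fell. The subunits and regulators of the anaphase-promoting complex had 4 genes rising and 3 falling of 17 (median 0.11), and augmin and the gamma-tubulin ring had 2 rising and 4 falling of 15 (median 0.08). In shM3_WT against shM3 the counts were 21 of 22 higher for spindle and cytokinesis, 22 of 32 for kinetochores, 8 of 10 for mitotic entry kinases, 3 higher and 2 lower of 17 for the anaphase-promoting complex, and 4 higher and 3 lower of 15 for augmin and the gamma-tubulin ring.

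KIFC1, a minus-end motor that clusters spindle poles, was at 117 and 108 FPKM in shM3_WT, 42.7 and 43.4 FPKM in shM3_CD, 19.4 and 21.3 FPKM in shM3 and 93.2 and 100.3 FPKM in B5 (log2 fold change -2.2 in shM3 against B5 and 2.42 in shM3_WT against shM3, both called). UBE2S, which extends ubiquitin chains for the anaphase-promoting complex, had log2 fold changes of -1.17 and 2.00 in the same comparisons, both called, while the core subunit gene ANAPC5 had 0.39 and -0.11, neither called. TUBG1, gamma-tubulin, had 0.15 in shM3 against B5, not called.

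The S phase genes also fell. Of 30, 26 fell and 1 rose in shM3 against B5 (median -1.06), and 28 rose and 1 fell in shM3_WT against shM3 (median 1.08), PCNA, the replication clamp, having log2 fold changes of -1.45 and 1.42. In shM3_WT against B5, 9 of 30 S phase genes were higher and 4 lower, with a median of 0.10, against 32 higher and 2 lower of the 59 members, whose median was 0.37. That difference between the lists was not tested.

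MYBL2, which encodes B-MYB, was at 35.6 and 36 FPKM in shM3_WT, 20.8 and 21.1 FPKM in shM3_CD, 11.2 and 10.8 FPKM in shM3 and 41.8 and 39.4 FPKM in B5. It fell in shM3 against B5 (log2 fold change -1.79, 95% interval -1.97 to -1.62, adjusted p = 2.5e-05), rose in shM3_WT against shM3 (log2 fold change 1.61, 95% interval 1.44 to 1.79, adjusted p = 2.8e-05), and in shM3_WT against B5 was not called (log2 fold change -0.18). CDKN1A, which encodes the CDK inhibitor p21, was at 64.7 and 100.004 FPKM in shM3_WT, 73.3 and 73.1 FPKM in shM3_CD, 79.1 and 81.6 FPKM in shM3 and 79.3 and 41.9 FPKM in B5, and was not called in any of the 6 comparisons of the knockdown table. Of the 14 genes of the MuvB and p21 list, 4 fell and 1 rose in shM3 against B5.

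The next comparisons concern BET inhibition. In 3 genes read as a check, the libraries labelled I-BET151 went against their label. HEXIM1, SERPINI1 and BRD2, which BET inhibitors raise in many cells and which were looked at after their values were seen, separated them from JQ1 and Molib. HEXIM1 was at 73.8 and 76.7 FPKM in JQ1, 72.9 and 69.6 FPKM in Molib, 10.3 and 6.37 FPKM in the libraries labelled I-BET151 and 26.5 and 29.4 FPKM in DMSO. SERPINI1 was at 20.7 and 22.2 FPKM in JQ1, 23.7 and 21.2 FPKM in Molib, 1.68 and 2.33 FPKM in the libraries labelled I-BET151 and 2.35 and 2.88 FPKM in DMSO. BRD2 was at 224 and 215 FPKM in JQ1, 175 and 179 FPKM in Molib, 61.3 and 62.6 FPKM in the libraries labelled I-BET151 and 64.9 and 64.6 FPKM in DMSO. None of the 3 genes was higher in the libraries labelled I-BET151 than in DMSO. HEXIM1 lay below DMSO in the libraries labelled I-BET151 and above it in JQ1 and Molib. Another trait was shared, since MT2A had the highest FPKM of all genes in both libraries labelled I-BET151 (7864 and 9220 FPKM). It also had the highest in JQ1 (8697 and 8692 FPKM) and Molib (9207 and 9196 FPKM), while S100A6 did in DMSO (4195 and 5341 FPKM). Which treatment the libraries labelled I-BET151 received was not tested.

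Most mitosis and spindle genes fell with JQ1. In JQ1 against DMSO, 49 of 59 members fell and none rose, with a median log2 fold change of -0.98, while 20.6% of the 14936 genes tested fell and the median of all was -0.04. In Molib against DMSO, 54 of 59 fell and none rose (median -1.11, against 20.5% and -0.03 over all genes). In the libraries labelled I-BET151 against DMSO, 56 of 59 fell and none rose (median -1.07, against 14.1% and -0.002). These comparisons share their DMSO libraries. With both libraries labelled I-BET151 left out of the fit, a choice made after seeing the data, 52 members fell with JQ1 and 56 with Molib.

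The median member was at 16.7 and 16.4 FPKM in JQ1, 14.2 and 15.8 FPKM in Molib, 14.1 and 15.1 FPKM in the libraries labelled I-BET151, and 34.6 and 32.2 FPKM in DMSO. Every JQ1 and Molib library, and both libraries labelled I-BET151, thus had a median level below that of both DMSO libraries.

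NDC80 fell most with JQ1 and with Molib. It was at 8.97 and 8.25 FPKM in JQ1, 7.46 and 6.13 FPKM in Molib, 10.8 and 12.8 FPKM in the libraries labelled I-BET151 and 34.6 and 32.2 FPKM in DMSO (log2 fold change -1.84, 95% interval -2.15 to -1.53, adjusted p = 0.00015 for JQ1, and log2 fold change -2.15, 95% interval -2.46 to -1.83, adjusted p = 8e-05 for Molib). CDCA8 was at 13.6 and 14.6 FPKM in JQ1, 13.9 and 15.5 FPKM in Molib, 11.2 and 10.8 FPKM in the libraries labelled I-BET151 and 51 and 50.1 FPKM in DMSO, with log2 fold changes of -1.77, -1.72 and -2.11 in that order. MKI67 was at 7.33 and 5.96 FPKM in JQ1, 7.14 and 6.59 FPKM in Molib, 6.03 and 5.55 FPKM in the libraries labelled I-BET151 and 25.5 and 24.5 FPKM in DMSO, with log2 fold changes of -1.77, -1.73 and -1.94. All of these were called, and no library of these 3 groups reached a DMSO library.

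In the CDK switch 8 of 9 genes fell with JQ1, 8 with Molib and 8 in the libraries labelled I-BET151. CCNB1 was at 60.7 and 61.2 FPKM in JQ1, 56 and 62.5 FPKM in Molib, 50.2 and 55.5 FPKM in the libraries labelled I-BET151 and 132 and 126 FPKM in DMSO. FOXM1 had log2 fold changes of -1.34 with JQ1, -1.49 with Molib and -0.76 in the libraries labelled I-BET151, all called. CDK1 fell with JQ1 (log2 fold change -0.77, adjusted p = 0.0038) and Molib (-0.78, adjusted p = 0.0036), and was not called in the libraries labelled I-BET151 (-0.36, adjusted p = 0.072). CCNA2, cyclin A2, was among the deepest falls with Molib, with 15.8 and 17 FPKM, against 67.4 and 61.6 FPKM in DMSO (log2 fold change -1.91, 95% interval -2.23 to -1.6, adjusted p = 0.00012). CDC25B, a phosphatase that activates CDK1, fell least in the libraries labelled I-BET151 of those called (-0.28), and AURKA was among the 3 deepest falls with Molib (-1.9).

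CKS2 again stood apart with JQ1 and Molib, at 159.9 and 159.8 FPKM in JQ1 and 156 and 157 FPKM in Molib, against 146 and 165 FPKM in DMSO (log2 fold change 0.05, 95% interval -0.23 to 0.32, for JQ1 and 0.02, 95% interval -0.26 to 0.30, for Molib). It fell in the libraries labelled I-BET151, at 128 and 105 FPKM (log2 fold change -0.42, 95% interval -0.69 to -0.14, adjusted p = 0.037). The CKS2 promoter shown above holds CHR letters 29 bases before its start and CCAAT letters, as do those of CCNB2 and PLK1, which fell with JQ1, with Molib and in the libraries labelled I-BET151.

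The mitotic kinases, the passenger complex, the anaphase genes and cytokinesis fell in full with JQ1, with Molib and in the libraries labelled I-BET151 (3 of 3, 4 of 4, 3 of 3 and 4 of 4). PLK1 was at 26.1 and 23.3 FPKM in JQ1, 30.8 and 27.6 FPKM in Molib, 24.8 and 23.8 FPKM in the libraries labelled I-BET151 and 64 and 67.9 FPKM in DMSO. AURKB had log2 fold changes of -1.49, -1.28 and -1.71 with JQ1, Molib and the libraries labelled I-BET151, CDC20 of -1.06, -1.2 and -1.93, ANLN of -0.89, -1.05 and -0.92, and PRC1 of -0.85, -0.97 and -0.92. PRC1, which METTL3 knockdown left uncalled, was called lower in all 3 groups, at 28.6 and 21.3 FPKM in JQ1, 18.9 and 26.9 FPKM in Molib, 21.8 and 25.1 FPKM in the libraries labelled I-BET151 and 46.2 and 44.2 FPKM in DMSO.

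Spindle assembly genes fell in different numbers. With JQ1, 2 of 6 fell (TPX2 and TACC3, median of the group -0.33), with Molib 5 of 6 (median -0.81), and in the libraries labelled I-BET151 6 of 6 (median -1.32). HMMR, a microtubule-binding protein of the spindle, was at 10.4 and 8.71 FPKM in JQ1, 5.8 and 7.35 FPKM in Molib, 2.15 and 2.13 FPKM in the libraries labelled I-BET151 and 8.31 and 6.48 FPKM in DMSO. Both JQ1 libraries lay above both DMSO libraries, without a call (log2 fold change 0.33, adjusted p = 0.15), and both libraries labelled I-BET151 lay far below (log2 fold change -1.41, 95% interval -1.79 to -1.03, adjusted p = 0.0013). TPX2 had log2 fold changes of -1.65, -1.65 and -1.04 with JQ1, Molib and the libraries labelled I-BET151, all called.

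Of the kinetochore genes 9 of 12 fell with JQ1, 10 with Molib and 10 in the libraries labelled I-BET151, BUB1 and TTK, checkpoint kinases, being called with none of them. BUB1 was at 27.8 and 37.4 FPKM in JQ1, 38 and 35.2 FPKM in Molib, 33.1 and 49.9 FPKM in the libraries labelled I-BET151 and 41.8 and 54.2 FPKM in DMSO. The spread between libraries of 1 group was wide for BUB1 in DMSO, JQ1 and the libraries labelled I-BET151. Among kinesins 10 of 11 fell with JQ1 and 11 with Molib and in the libraries labelled I-BET151, KIF20A being the deepest fall of the last, at 9.58 and 9.61 FPKM, against 56.6 and 67.3 FPKM in DMSO (log2 fold change -2.57, 95% interval -2.91 to -2.22, adjusted p = 8.1e-05). KIF20A was at 21.8 and 19.9 FPKM in JQ1 and 17.3 and 22.4 FPKM in Molib, and KIF11 had log2 fold changes of -0.64, -0.99 and -1.3.

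In condensin and chromosome structure 6 of 7 genes fell with JQ1 and Molib and 7 in the libraries labelled I-BET151. SMC4 was at 40.1 and 39.8 FPKM in JQ1, 28.6 and 30.1 FPKM in Molib, 15.7 and 21.3 FPKM in the libraries labelled I-BET151 and 39.1 and 36.8 FPKM in DMSO. It was not called with JQ1 (0.07) or Molib (-0.36) and fell in the libraries labelled I-BET151 (log2 fold change -1.01, 95% interval -1.34 to -0.68, adjusted p = 0.0027). TOP2A had log2 fold changes of -1.24, -1.52 and -1.84, and NCAPG of -0.55, -0.91 and -1.12, all called.

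**Figure D3:**
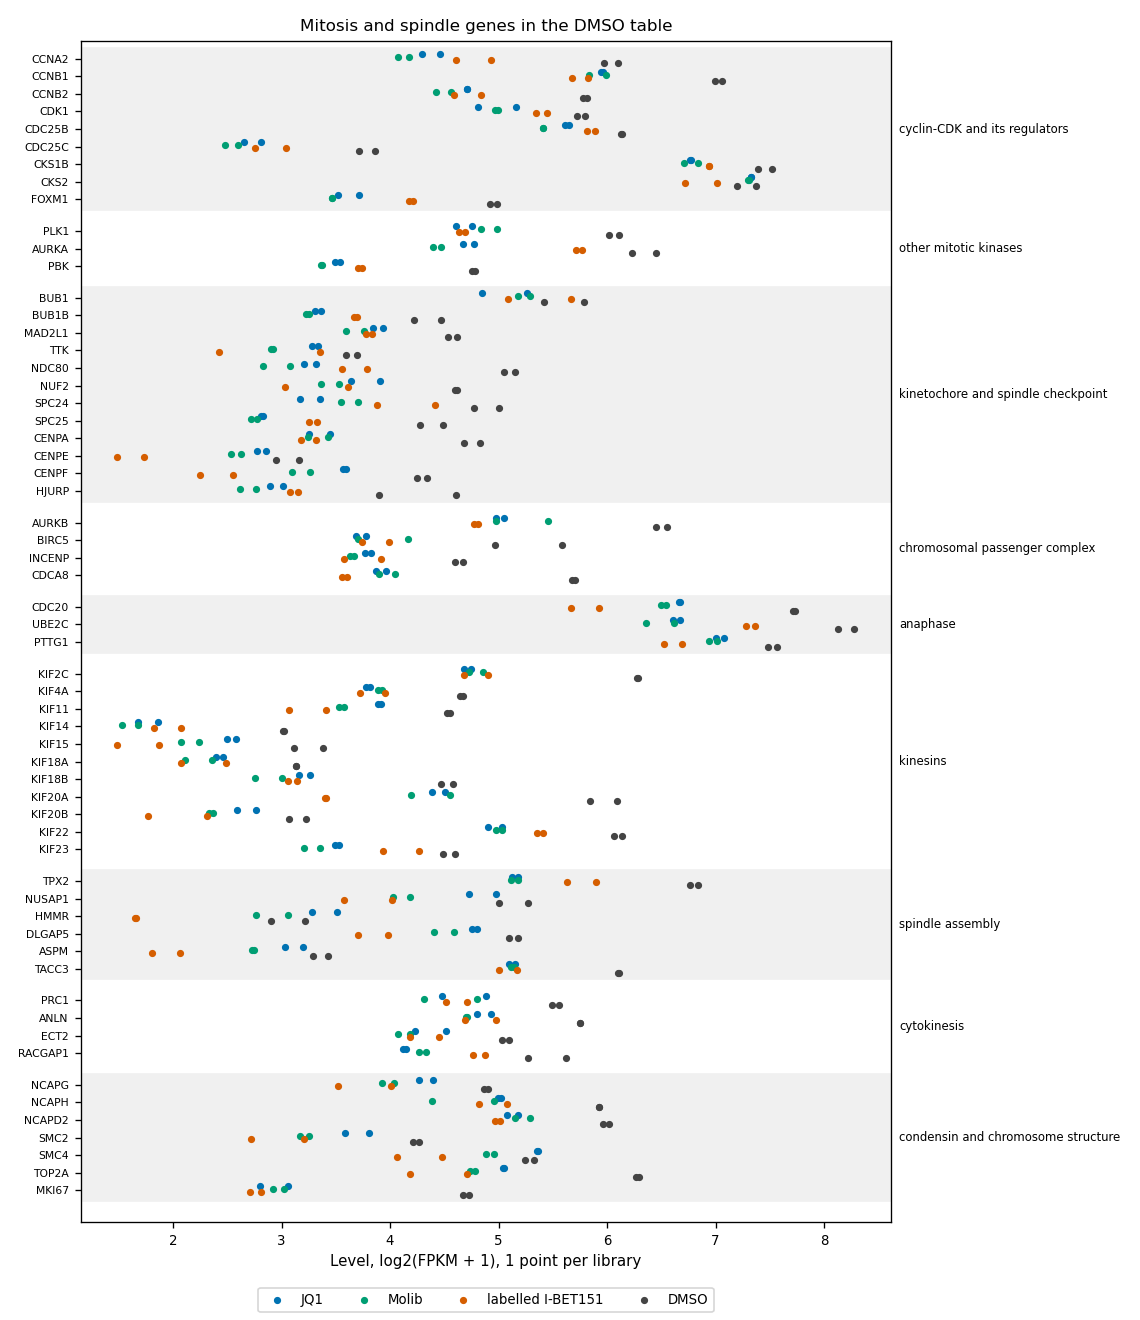
Level of each member, as log2(FPKM + 1) on the x axis, in the DMSO table, with 1 point per library and members grouped by function. DMSO points lie furthest right for most members, and the points labelled I-BET151 lie left of the JQ1 and Molib points for HMMR, ASPM, CENPE, CENPF and KIF20A and right of them for AURKA, UBE2C and KIF23.

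The 3 groups were compared in 3 pairs at the labelled dose and time, with p-values adjusted over all genes within a pair. Molib against JQ1 is a comparison of 2 compounds, while for the other pairs, which use the libraries labelled I-BET151, the treatment is in doubt. Molib and JQ1 differed by call for none of the 59 members and none of the 14936 genes tested (0.00%). At an unadjusted p under 0.05, 10 members were lower and none higher with Molib, and 1227 genes (8.22%) differed either way. The median log2 fold change of the members was -0.16 for Molib against JQ1, against 0.01 over all genes. The 95% intervals of the members had a median half-width of 0.31 on the log2 scale and reached from -1.16 to 0.81 at the extremes. NUSAP1, which bundles spindle microtubules around chromosomes, had the largest difference, with 15.3 and 17.2 FPKM in Molib, against 30.5 and 25.5 FPKM in JQ1 (log2 fold change -0.75, 95% interval -1.16 to -0.33, adjusted p = 0.49), and SPC24 the highest value in the other direction (log2 fold change 0.37, 95% interval -0.07 to 0.81). SMC2 and HMMR had log2 fold changes of -0.49 and -0.48, PLK1 and AURKB of 0.23 and 0.20.

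The libraries labelled I-BET151 differed from JQ1 in both directions. Of 59 members 13 were higher and 18 lower, with a median log2 fold change of -0.06, against 24.6% of all genes being higher, 20.1% lower and a median of 0.03. Without JQ1 library b, 9 were higher and 11 lower, and without JQ1 library a 6 were higher and 13 lower. With TMM factors 9 were higher and 18 lower. The share of members called higher was near that of all genes, and the difference of the lower share from that of all genes was not tested.

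The higher members held AURKA, the Aurora kinase of spindle poles, at 51.4 and 53.5 FPKM in the libraries labelled I-BET151, against 26.3 and 24.5 FPKM in JQ1 (log2 fold change 1.02, 95% interval 0.76 to 1.27, adjusted p = 0.0004). SPC24 was at 20.4 and 13.7 FPKM in the libraries labelled I-BET151, against 9.21 and 7.98 FPKM in JQ1 (log2 fold change 0.89, 95% interval 0.45 to 1.33, adjusted p = 0.0074). RACGAP1, of the centralspindlin complex, was at 26.1 and 28.3 FPKM in the libraries labelled I-BET151, against 16.7 and 16.4 FPKM in JQ1 (log2 fold change 0.69, 95% interval 0.38 to 0.99, adjusted p = 0.0048). UBE2C, TPX2, FOXM1, CDK1 and NDC80 were also higher by call, with log2 fold changes of 0.68, 0.61, 0.58, 0.41 and 0.41.

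The lower members held HMMR (log2 fold change -1.74, 95% interval -2.13 to -1.36, adjusted p = 0.00023), at 2.15 and 2.13 FPKM in the libraries labelled I-BET151, against 10.4 and 8.71 FPKM in JQ1. CENPE was at 1.8 and 2.32 FPKM in the libraries labelled I-BET151, against 5.83 and 6.22 FPKM in JQ1 (log2 fold change -1.2, 95% interval -1.53 to -0.88, adjusted p = 0.00054). CENPF was at 3.75 and 4.88 FPKM in the libraries labelled I-BET151, against 10.9 and 11.1 FPKM in JQ1 (log2 fold change -1.18, 95% interval -1.49 to -0.87, adjusted p = 0.00052). SMC4, KIF20A, CDC20, KIF11, TOP2A and NCAPG were lower as well, with log2 fold changes of -1.08, -1.04, -0.87, -0.67, -0.60 and -0.57, while PLK1, CCNB1, AURKB, MKI67, PRC1, ANLN and BUB1 were not called.

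Against Molib, 14 of 59 members were higher in the libraries labelled I-BET151 and 11 lower, with a median log2 fold change of -0.002, against 23.6% higher, 19.9% lower and a median of 0.02 over all genes. Both shares of members called were near those of all genes. AURKA was at 51.4 and 53.5 FPKM in the libraries labelled I-BET151, against 20.1 and 21.2 FPKM in Molib (log2 fold change 1.3, 95% interval 1.05 to 1.56, adjusted p = 0.00014), UBE2C had a log2 fold change of 0.84 and KIF23, the motor of centralspindlin, of 0.82, all called. HMMR, CENPE and KIF20A were the lowest, with -1.26, -0.97 and -0.97, all called. Without Molib replicate 1, 9 were higher and 9 lower, and without the library labelled I-BET151 replicate 2, 14 were higher and 19 lower. Scaling to equal medians gave 13 higher and 16 lower.

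Transcript length also went with the difference between the libraries labelled I-BET151 and JQ1, though the class medians did not follow the order of length. In the libraries labelled I-BET151 against JQ1, the 17 members with transcripts over 4000 bases had a median log2 fold change of -0.60, the 28 between 2000 and 4000 bases of 0.11 and the 14 of at most 2000 bases of -0.05, against -0.02, 0.06 and 0.15 over all genes in the same classes. As a description, Spearman's rho of length with this difference was -0.33 across the members and -0.10 over all genes. Such values were not confined to it. Across the members rho was -0.37 for shM3_WT against shM3_CD, -0.36 for Molib against JQ1, where no gene was called, and 0.30 for JQ1 against DMSO. Over all genes these were -0.06, -0.15 and 0.11. The part of transcript length in these differences was not tested.

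**Figure D4:**
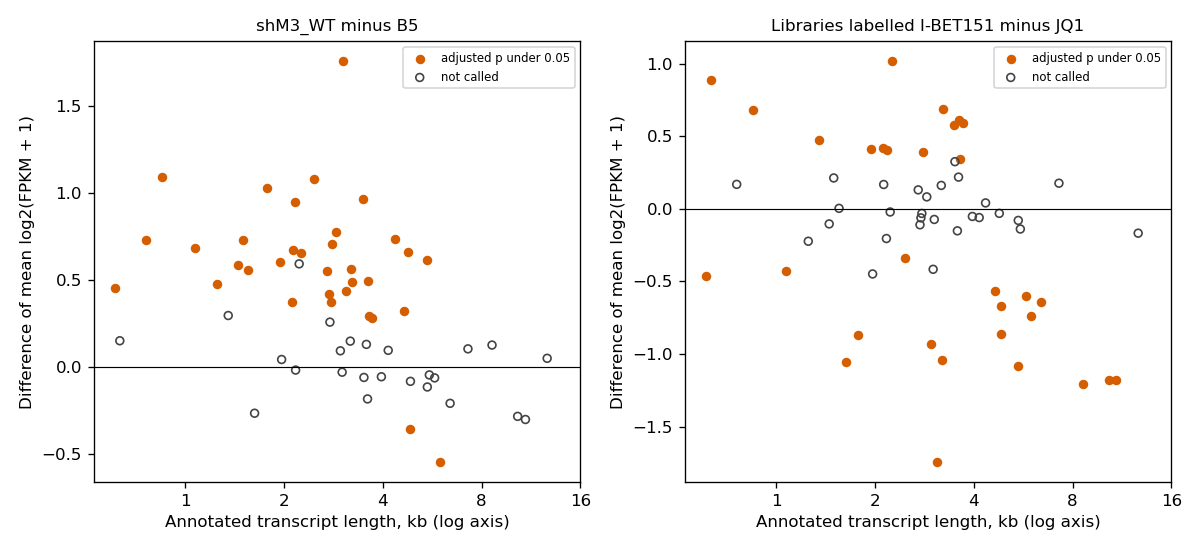
Difference of mean log2(FPKM + 1) of each member (y axis) against its annotated transcript length in kb (x axis, log scale) for shM3_WT minus B5 and for the libraries labelled I-BET151 minus JQ1, with filled points for called members. The 17 members over 4000 bases have a median of -0.05 for shM3_WT minus B5 and -0.60 for the libraries labelled I-BET151 minus JQ1, where HMMR is the lowest point.

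Other pathway genes were lower than in DMSO as well. Of the further spindle and cytokinesis genes 18 of 22 fell with JQ1, 19 with Molib and 20 in the libraries labelled I-BET151, and of the S phase genes 27, 27 and 25 of 30, with medians of -1.03, -1.17 and -0.68. All 10 mitotic entry kinases fell with JQ1 and with Molib, while in the libraries labelled I-BET151 6 fell and 1 rose. MELK, a kinase of proliferating cells, had log2 fold changes of -1.49 with JQ1 and -1.5 with Molib. For the anaphase-promoting complex 1 gene rose and 3 fell of 17 with JQ1 (median -0.05), and for augmin and the gamma-tubulin ring 2 rose and 6 fell of 15 (median -0.29). MYBL2 was at 27.2 and 29.1 FPKM in JQ1, 25.9 and 27.7 FPKM in Molib, 18.6 and 16.6 FPKM in the libraries labelled I-BET151 and 67.1 and 64.6 FPKM in DMSO, with log2 fold changes of -1.2, -1.27 and -1.85, all called. CDKN1A was at 119 and 124 FPKM in JQ1, 153 and 146 FPKM in Molib, 236 and 108 FPKM in the libraries labelled I-BET151 and 79.3 and 46.3 FPKM in DMSO, and rose by call with Molib (1.29) and in the libraries labelled I-BET151 (1.38) but not with JQ1 (0.99, adjusted p = 0.071). The histone gene H2AC6, among the RNAs mostly without a poly(A) tail, rose by 4.24 with JQ1 and 4.02 with Molib on the log2 scale, and its part in the members' values was not tested.

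The CTRL table must be read with its libraries in view. Of the 13261 genes tested there, 2053 to 3798 were listed at 0 in each CTRL and JQ1 library, against 72 and 86 in the MW_JQ1 libraries, and the 2 libraries of a group correlated at r = 0.986 for MW_JQ1, 0.777 for JQ1 and 0.746 for CTRL across genes, which are not independent. RN7SL1 was at 23.8 and 57.6 FPKM in MW_JQ1, 50061 and 42965 FPKM in JQ1 and 37435 and 52947 FPKM in CTRL. METTL3 was at 212 and 234 FPKM in MW_JQ1, 11.8 FPKM and listed at 0 in JQ1 and 31.2 and 1.18 FPKM in CTRL. The protocols describe both a directional kit and a preparation with removal of ribosomal RNA and then poly(A)- or poly(A)+ fractions, without saying which libraries had which. These differences between the libraries and the MW label cannot be told apart.

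JQ1 lay below CTRL for most members in this second experiment, without a call. In JQ1 against CTRL, none of 57 members and none of 13261 genes tested was called (0.00%), with a lowest adjusted p of 0.080. At an unadjusted p under 0.05, 33 members were lower and none higher, against 2048 genes (15.4%) either way. Leaving out 1 library gave 0 to 6 lower members and none higher, with 2 without CTRL replicate 1, 6 without CTRL replicate 2 and 6 without JQ1 replicate 1. For 45 of 57 members both JQ1 libraries lay below both CTRL libraries, against 19.0% of all genes, and the median log2 fold change was -2.11, against -0.0002 over all genes.

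KIF2C was at 0.799 FPKM and listed at 0 in JQ1, against 56.9 and 36.7 FPKM in CTRL. UBE2C was at 8.02 and 1.04 FPKM in JQ1, against 132 and 94.2 FPKM in CTRL. CDC20 was at 20.3 and 0.148 FPKM in JQ1, against 123 and 87.4 FPKM in CTRL. In these 3 genes the JQ1 libraries were far below the CTRL libraries, and 1 JQ1 library of each was listed at 0 or stood at most at 1.04 FPKM. CCNB1 was at 28.5 and 12.8 FPKM in JQ1, against 241 and 80.6 FPKM in CTRL. PLK1 was at 2.44 and 7.06 FPKM in JQ1, against 27.5 and 27.4 FPKM in CTRL. TPX2 was at 18 and 16 FPKM in JQ1, against 73.4 and 95 FPKM in CTRL. The groups did not overlap for these genes either. CKS2 was at 84.8 and 140.5 FPKM in JQ1 and 118 and 126 FPKM in CTRL, CKS1B, its paralogue, at 11.5 and 47.9 FPKM in JQ1 and 27.8 and 22.6 FPKM in CTRL, and both overlapped. The authors' deposited table of their own test names neither the groups nor the direction of its fold change in the columns, so its values are given apart and support neither comparison here. The authors' deposited table gave a negative log2 fold change for 56 of 57 members, with an adjusted p under 0.05 for 34 of them, against 10.2% of its 14954 genes negative at that threshold.

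Both MW_JQ1 libraries lay above both JQ1 libraries for 42 of 57 members, against 51.9% of all genes tested. In MW_JQ1 against JQ1, 8 of 57 members were higher and none lower, against 13.5% of all genes being higher, and the members' median log2 fold change was 1.41, against 0.75 over all genes. Scaling the libraries to equal medians gave 4 higher members and medians of 0.70 for the members and 0.15 for all genes, and TMM factors gave 5 higher members and medians of 1.1 and 0.48. The count was 17 without JQ1 replicate 1, 2 without MW_JQ1 replicate 1 and 1 without MW_JQ1 replicate 2. The share called was near that of all genes. HMMR and CDC25C passed the filter on low values only through MW_JQ1, so the filter itself favoured higher values there, and of the other 55 members 7 were called higher, 40 had no overlap and the median was 1.4.

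The 8 were UBE2C, KIF2C, AURKA, CCNB2, NCAPH, HMMR, TPX2 and CDC25B. UBE2C was at 93 and 97.2 FPKM in MW_JQ1, against 8.02 and 1.04 FPKM in JQ1 (log2 fold change 4.48, adjusted p = 0.018). KIF2C was at 29.3 and 23.2 FPKM in MW_JQ1, against 0.799 FPKM and listed at 0 in JQ1. AURKA was at 35.3 and 39.6 FPKM in MW_JQ1, against 1.72 and 1.37 FPKM in JQ1 (log2 fold change 3.92, adjusted p = 0.0021). TPX2 was at 46.8 and 45.7 FPKM in MW_JQ1, against 18 and 16 FPKM in JQ1 (log2 fold change 1.4, adjusted p = 0.023). The MW_JQ1 libraries of these genes lay close together and above both JQ1 libraries. HMMR, which passed the filter through MW_JQ1 alone, was listed at 0 in all JQ1 and CTRL libraries and at 2.23 and 2.21 FPKM in MW_JQ1.

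At the low end were SMC4, at 20.9 and 18.5 FPKM in MW_JQ1, against 52 and 44.9 FPKM in JQ1, and the checkpoint gene BUB1B, at 7.37 and 5.8 FPKM in MW_JQ1, against 3.61 and 29.7 FPKM in JQ1, neither called. MKI67 was at 5.06 and 8.91 FPKM in MW_JQ1 and 7.12 and 7.93 FPKM in JQ1. SMC4 was the only member whose MW_JQ1 libraries both lay below both JQ1 libraries. Transcript length moved with this comparison too: across the 57 members, as a description, Spearman's rho of length with the log2 fold change was -0.59 for MW_JQ1 against JQ1, against -0.26 over all genes tested with a length. For JQ1 against CTRL, rho was 0.43 across the members and 0.02 over all genes, the members' medians being -2.88 at up to 2000 bases (13 genes), -2.28 up to 4000 bases (27 genes) and -1.22 above (17 genes). The points of a comparison share its 4 libraries, and the part of length in these results was not tested.

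**Figure D5:**
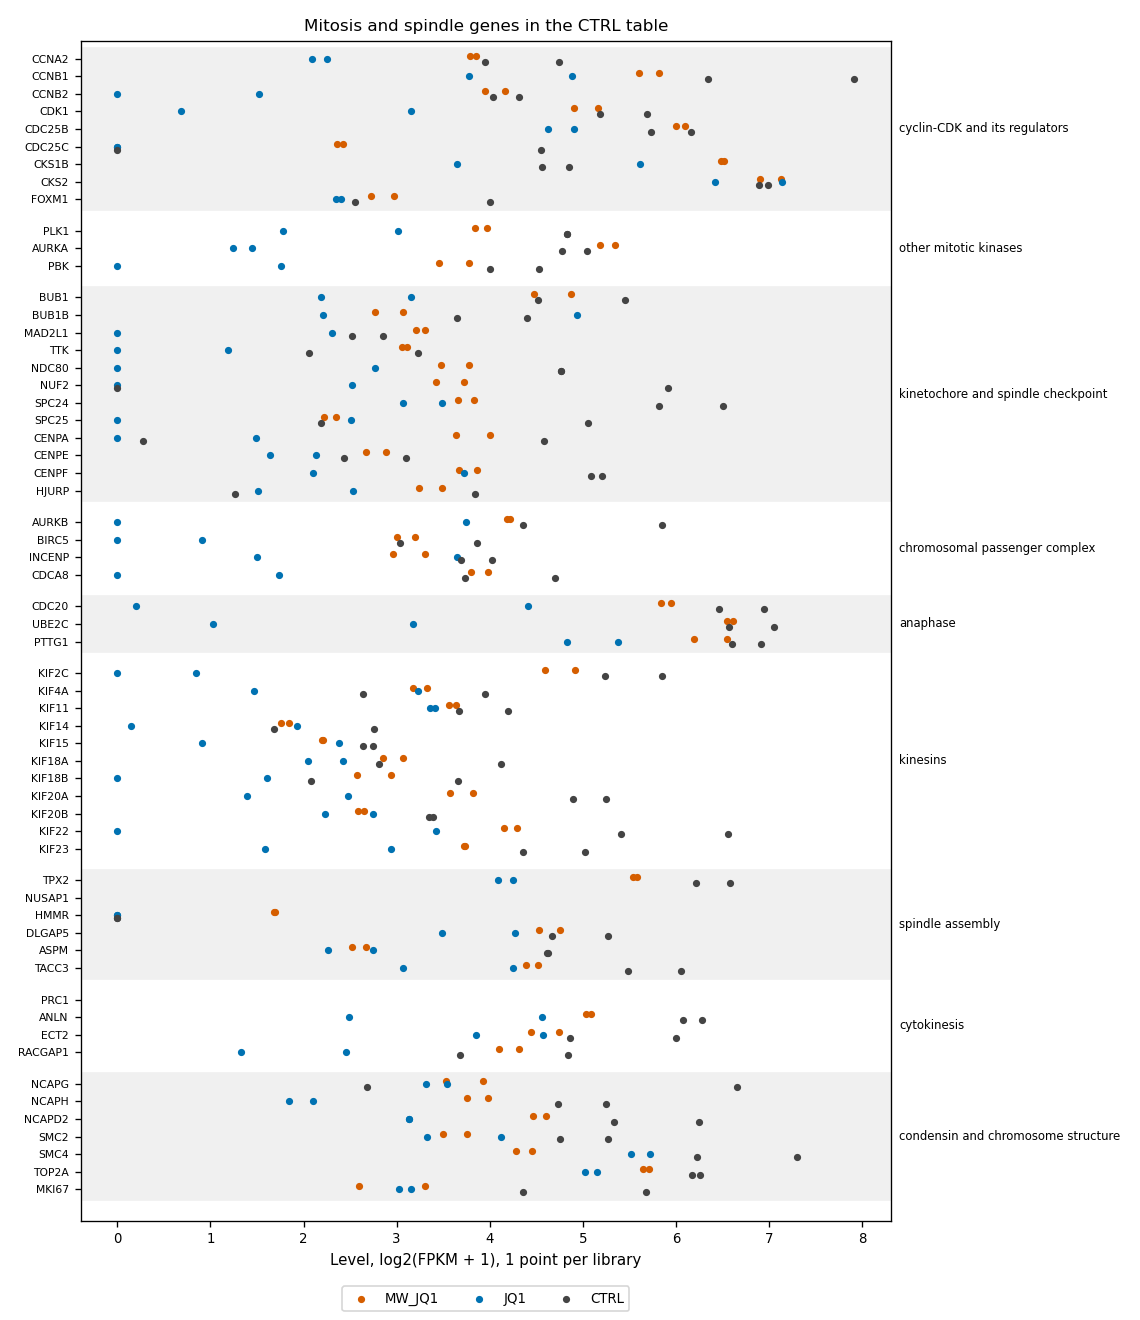
Level of each member, as log2(FPKM + 1) on the x axis, in the CTRL table, with 1 point per library and members grouped by function. PRC1 and NUSAP1 have no points. The 2 JQ1 libraries are spread widely and reach 0 for several members, the MW_JQ1 points lie close together, and most CTRL points lie furthest right.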

How the data were processed

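RNA-seq of 22 libraries of MDA-MB-231 cells in 11 groups was analysed from 3 tables. The values are FPKM per gene, made by the authors and deposited; the unit is named for the knockdown table and was inferred for the others from the values. Per the submitters' processing notes the tools were CASAVA 1.4, HISAT2 2.1.0 and Cufflinks 2.2.1 on hg38. The deposited CTRL table also holds the authors' own test, with a mean signal, a log2 fold change, its standard error (the score column) and p-values, and the groups and direction of its fold change are not named in the columns. Read depth is not given, so no counting interval was made.

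Values were tested per table as log2(FPKM + 1) with limma 3.58.1 in R 4.3.3 (all groups of a table in 1 fit, empirical Bayes with trend), on genes that reached 1 FPKM in 2 libraries or more, and called at a Benjamini-Hochberg adjusted p under 0.05 over all genes tested. Tables were tested separately. The fit was also run on simulated data with normal noise drawn from its own variance estimates, so that run cannot judge how well it suits these libraries. JQ1 columns of the DMSO table were assigned by elimination and are called libraries a and b. In each comparison the 3 lowest and 3 highest members, and 18 members fixed for their roles, were named; library-check genes were chosen after their values were seen. The members and lists were chosen with earlier results of these data known. Replicate numbers were not used as pairs in the main fit, since no label says that they pair the samples. No group pair's deviations correlated at over 0.1, the lowest being -0.12, which cannot exclude a pairing. Summaries used Python 3.11.15 with pandas 2.3.3. Alternatives were other pseudocounts (0.1 and 5), no filter or a filter at 5 FPKM, TMM factors, median scaling, a replicate block, the 2 groups alone, a 2-fold limit and leaving out each library.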

Additional observations from a re-analysis of the deposited data

Results flagged for a closer look

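SMC4, a condensin ATPase, had log2 fold changes of opposite sign with JQ1 in the 2 experiments that have JQ1 and a control. In the DMSO table it hardly moved, at 40.1 and 39.8 FPKM in JQ1, against 39.1 and 36.8 FPKM in DMSO, with a log2 fold change of 0.0735. In the CTRL table it was at 52 and 44.9 FPKM in JQ1, against 156 and 73.9 FPKM in CTRL, with a log2 fold change of -1.14. Neither difference was called, and the difference between the experiments was not tested.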

How the results depend on the processing

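No called member changed sign in any alternative of its comparison. Counts of called members moved by more than 1.5 times in these cases, and the cause was not tested. With a further limit of 2-fold, 8 members were higher in shM3_CD against shM3, 19 in shM3_WT against shM3_CD and 4 in shM3_WT against B5, 4 were lower in shM3_CD against B5, 29 in JQ1 against DMSO, 35 in the libraries labelled I-BET151 against DMSO and 7 in those libraries against JQ1, and 1 was higher in them against Molib. In MW_JQ1 against JQ1, 4 were higher with a filter at 5 FPKM, 5 with TMM factors, 4 with median scaling and 4 with a replicate block. Leaving out 1 library gave 27 to 29 members for shM3_CD against shM3, 19 to 24 for shM3_WT against B5, 11 to 19 lower for the libraries labelled I-BET151 against JQ1, 9 to 16 higher for them against Molib, and 1 to 17 for MW_JQ1 against JQ1. In the other comparisons with calls it gave 54 to 57 for shM3 against B5, 58 to 59 for shM3_WT against shM3, 39 to 48 for shM3_WT against shM3_CD, 25 to 29 for shM3_CD against B5, 41 to 44 for JQ1, 50 to 52 for Molib and 47 to 55 for the libraries labelled I-BET151, each against DMSO. Leaving a group with 1 library assumes that it varies like the others.

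With the replicate block, 57 members fell in shM3 against B5, 59 rose in shM3_WT against shM3, 43 rose in shM3_CD against shM3, 29 were higher in shM3_WT against B5, 53 fell with Molib and 52 in the libraries labelled I-BET151 against DMSO. JQ1 of the DMSO table carries no number and was not blocked. The deviations of DMSO and the libraries labelled I-BET151 correlated at -0.12, and crossing their numbers, chosen after seeing the data, gave 53. Members called in every alternative numbered 53 of 57 for shM3 against B5, 24 of 45 for shM3_CD against shM3, 18 of 34 for shM3_WT against B5, 40 of 49 for JQ1 against DMSO and 1 of 8 for MW_JQ1 against JQ1. With the 250 bases before a start alone, TTTGAA stood in 48.4% of the members' windows, against 13.3% of all. With 2 libraries a group and no read depth, small differences of low genes cannot be judged.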
